A study of Solenopsis invicta with 3 samples.

Results

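Weak or silent odorant receptors were the odorant receptor entries (identifiers that start with SiOR) with a mean normalized count under 30 over the 3 antennal libraries, entries at 0 included. They numbered 211 of the 473 receptor entries (44.6%), in a reference of 19703 entries. The other 262 receptor entries had a mean of 30 or more and are called stronger receptors here. A normalized count is the deposited expected count divided by the size factor of its library. The members were chosen by these counts, so their low level is a description and not a finding.

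The fire ant *Solenopsis invicta* lives in monogyne colonies, with a single queen, and in polygyne colonies, with several queens. The social supergene, a region that is inherited as a block, has the variants SB and Sb. Antennae came from 3 classes of foraging workers, to ask which genes differ with genotype and with social form. The class P_Bb was polygyne with genotype SB/Sb, P_BB was polygyne with genotype SB/SB, and M_BB was monogyne with genotype SB/SB. Where 3 values are given without labels, they stand in the order P_Bb, P_BB, M_BB. Each class had 1 library, made by mixing cDNA of several colonies that had been amplified separately. The colonies of P_Bb and P_BB were the same polygyne colonies, and those of M_BB were monogyne, so social form and colony cannot be told apart. With 1 library per class, no difference between classes has a replicate check and none was tested. The age of the workers was not given in the sources used here. In a pool of whole antennae, fewer neurons that express a receptor and less RNA per neuron cannot be told apart.

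Odorant receptors of insects are membrane proteins of olfactory sensory neurons, which lie in the sensilla of the antenna. A receptor that binds the odorant forms an ion channel with a co-receptor shared by most olfactory neurons, and a neuron usually uses few of the many receptor genes. Ants have large receptor families that grew by repeated duplication, so that neighbouring copies can be nearly identical in sequence. Short reads from such copies can fit more than 1 entry of a reference. The ligands of the receptors named below are not given in the sources used here.

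Most of the weak receptors were detected. Counts above 0 were recorded in all 3 libraries for 164 of the 211 entries (77.7%), in 2 libraries for 20, in 1 library for 13 and in none for 14 (6.64%). Among all 12303 reference entries with a mean under 30, 36.2% were above 0 in all 3 libraries and 41.7% were at 0 in all 3. All 262 stronger receptors were above 0 in every library. At 0 were 29, 26 and 33 members. The library totals were 3351500, 3421923 and 3948464 expected counts, so the library with the most members at 0 was also the deepest. At a floor of 3 counts, 137 members lay above the floor in all 3 libraries and 40 lay above it in none. For a member of median effective length, 3 counts corresponded to 0.931, 0.929 and 0.805 TPM (a level that is corrected for length and depth), and lower levels lay under the floor. The reads carried no molecular identifiers, so floors and the intervals below cover counting error only.

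The levels of the members covered the whole range from 0 to the limit of 30. The mean normalized count was under 1 in 29 entries, from 1 to under 10 in 74, from 10 to under 20 in 60 and from 20 to under 30 in 48. The median was 10.3, against 61.8 for the stronger receptors. The highest means belonged to SiOR44 (29.4), SiOR299 (29.4), SiOR205 (29.3), SiOR7 (29.0) and SiOR280 (28.9). The receptors next above the limit were SiOR314 (30.1), SiOR91 (30.5) and SiOR415 (30.5). SiOR205 had 29.9, 23.0 and 35.1 normalized counts, and SiOR91 had 34.1, 31.3 and 26.1. The limit therefore runs through a continuous range, and the libraries of a receptor near it lay on both sides of 30.

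**Figure D1:**
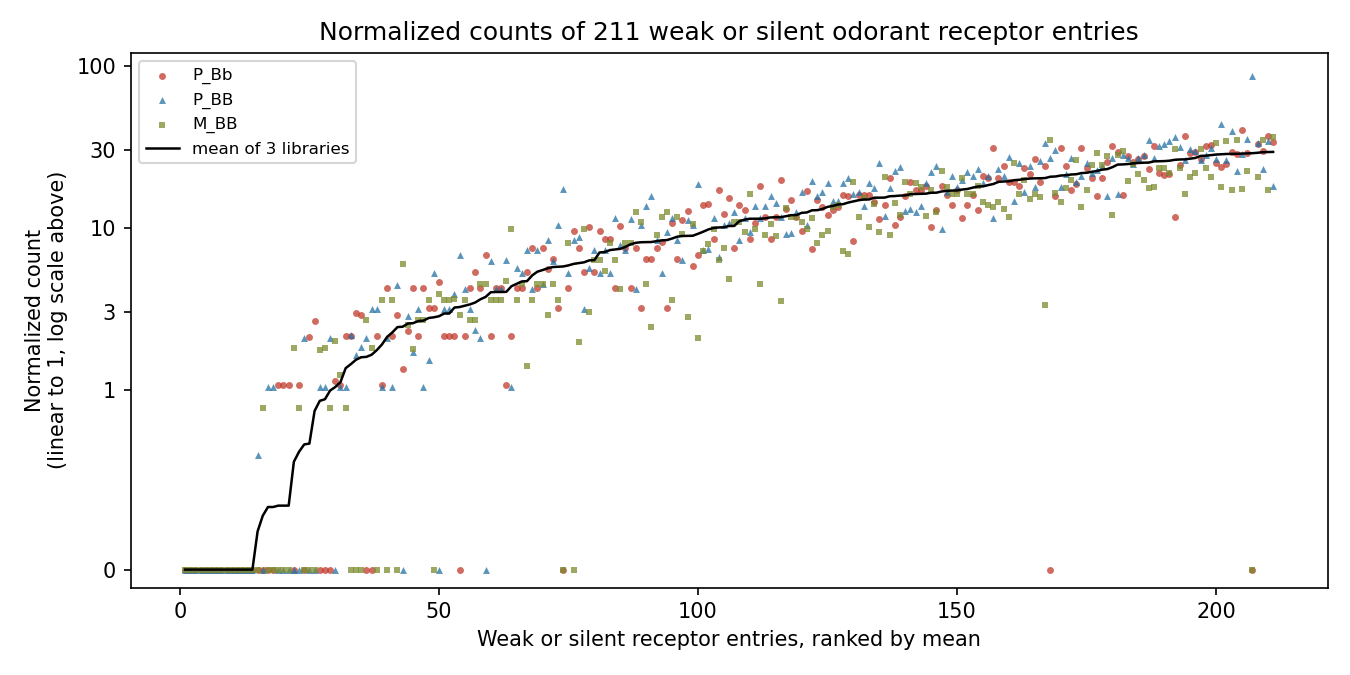
Normalized counts of the 211 weak or silent receptor entries (vertical axis, linear up to 1 and logarithmic above) against their rank by mean (horizontal axis), with 1 point per library and a line for the mean. Most points at 0 lie at the low ranks, and SiOR2 (at 0 in P_Bb) and SiOR280 (at 0 in P_Bb and M_BB, 86.6 in P_BB) stand out at the high ranks.

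The 211 members together held 2321, 2662 and 2418 counts. Their share of all counts was 0.0693% in P_Bb (95% Clopper-Pearson interval 0.0665 to 0.0721), 0.0778% in P_BB (0.0749 to 0.0808) and 0.0612% in M_BB (0.0588 to 0.0637). The P_BB value included the 83 counts of SiOR280, whose reads were shared, as described below. Of the counts of all receptor entries, the members held 9.06%, 9.80% and 8.80%. The median TPM of a member was 3, 3.41 and 2.81, against 18.3, 18.8 and 16.4 for the stronger receptors.

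Per length, part of the weak set overlapped with the stronger set. The rule on counts takes no account of length, and 12 members had a mean TPM above that of the lowest stronger receptor (7.87). The highest was SiOR7, an entry of 723 bases with 15.9, 16.3 and 10.1 TPM and a mean of 14.1. Of the 262 stronger receptors, 87 had a mean TPM below that of SiOR7. The TPM of SiOR7 was below the median of the stronger receptors in each library.

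The weak set was rich in short entries, which a limit on counts uncorrected for length favours. All 473 receptor lengths were multiples of 3, so they were read as coding lengths. The median length was 1080 bases in the members (quartiles 897 to 1164) and 1158 bases in the stronger receptors (quartiles 1116 to 1188). Shorter than 1000 bases were 83 of 211 members (39.3%) and 20 of 262 stronger receptors (7.63%). The share of receptors that were members was 91.4% (32 of 35) under 800 bases and 75% (51 of 68) at 800 to under 1000 bases. It was 50% (35 of 70) at 1000 to under 1100 bases, 29.6% (67 of 226) at 1100 to under 1200 bases and 35.1% (26 of 74) above that. The median of the mean TPM in the same length classes was 1.72, 3.80, 8.98, 13.9 and 11.2. Within the members, the median length was 942 bases at a mean under 10 and 1131 bases at a mean of 10 to under 30. Entries are not replicates, and no test was made of the lengths.

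A few entries went against the lengths of their set. SiOR466, the longest member at 2511 bases, had 20.3, 17.7 and 9.01 normalized counts, or 2.29, 2.04 and 1.05 TPM. SiOR7, and SiOR82 (768 bases) and SiOR448 (813 bases), which were named after their values were seen, had mean TPM values of 14.1, 12.0 and 12.1, which were the highest among the members. A short entry was thus not always a low one.

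**Figure D2:**
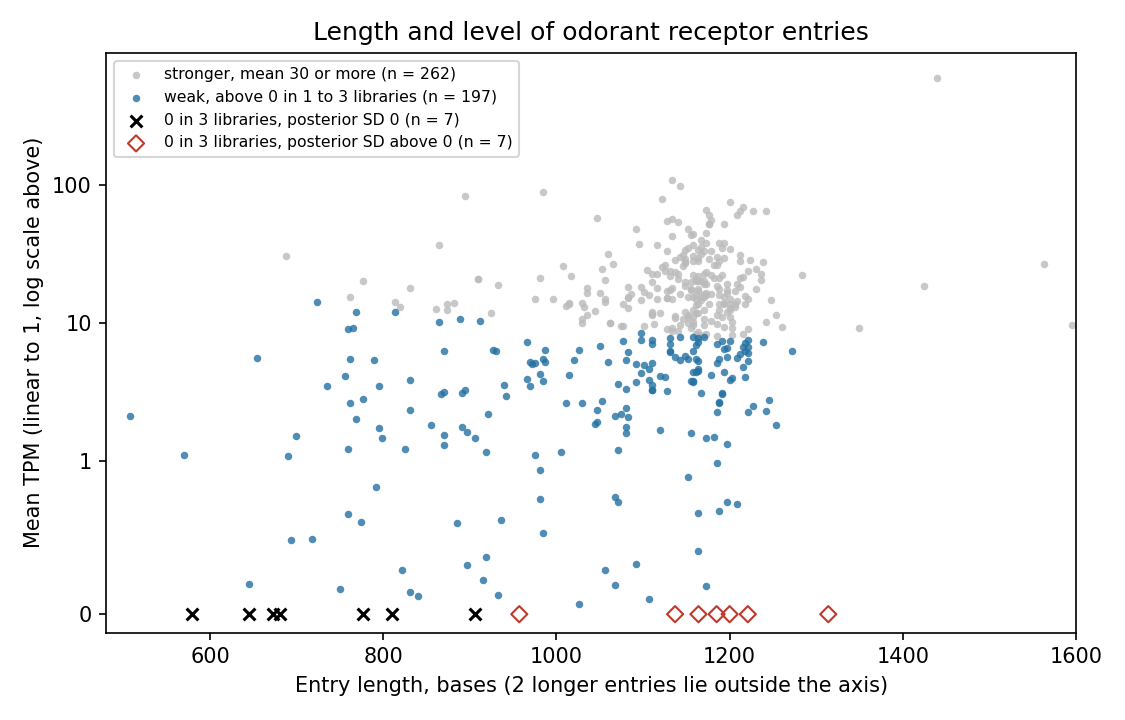
Mean TPM (vertical axis, linear up to 1 and logarithmic above) against entry length in bases (horizontal axis) for stronger receptors, weak receptors and the 14 entries at 0 in every library. The 7 entries at 0 with a posterior SD of 0 span 579 to 906 bases, and the 7 with a posterior SD above 0 span 957 to 1314 bases.

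The 14 entries at 0 in every library were of 2 kinds. RSEM, the program that made the counts, divides a read that fits several entries between them. The deposited posterior SD of a count says how much that division could vary, and it is 0 where no read of the entry was in doubt. Of the 14 entries, 7 had a posterior SD of 0 in all 3 libraries, so that no read, certain or shared, was attributed to them. These were SiOR464 (579 bases), SiOR257 (645), SiOR355 (672), SiOR88 (681), SiOR389 (777), SiOR356 (810) and SiOR407 (906). Their median length was 681 bases. The other 7 had a posterior SD above 0 in all 3 libraries, so that reads which could have come from them were given to other entries. These were SiOR232 (1314 bases), SiOR56 (1221), SiOR89 (1200), SiOR33 (1185), SiOR84 (1164), SiOR357 (1137) and SiOR430 (957). Their median length was 1185 bases, close to that of the stronger receptors, and the lengths of the 2 kinds did not overlap.

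A listed count of 0 was therefore free of doubt over shared reads in the first kind only. SiOR84 had an expected count of 0 in each library, but posterior means of 13.7, 9.50 and 6.07 counts, with SDs of 12.1, 7.57 and 5.61. SiOR56 had posterior means of 12.96, 6.09 and 6.68 counts with SDs of 10.3, 5.95 and 6.79. SiOR89 had posterior means of 6.44, 6.15 and 6.14 counts with SDs of 5.33, 5.84 and 5.69. For these 3 receptors the spread of the count was close to its mean in every library. SiOR232 and SiOR430 were nearer to 0, with posterior means of 0.65 to 0.83 and 0.25 to 0.39 counts. The upper bound of the deposited 95% credibility interval of the TPM was 11.5, 7.29 and 4.69 for SiOR84. For SiOR464, the shortest entry with an SD of 0, the same bound was 2.05, 2.02 and 1.74.

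The same difference held for single libraries. Members at 0 with an SD of 0 numbered 16, 13 and 17, and their upper TPM bounds reached at most 2.10, 2.02 and 1.74. Members at 0 with an SD of at least 1 count numbered 10, 9 and 12, and their upper bounds reached 18.1, 7.29 and 13.8 TPM. The bound of 18.1 TPM, of SiOR280 in P_Bb, was close to the median stronger receptor of that library (18.3 TPM).

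Among the members as a whole, doubt over shared reads was uneven. The posterior SD was at least 1 count in 51, 52 and 52 members (24.2% to 24.6%), and in 65 members (30.8%) in at least 1 library. Over all reference entries with a mean under 30, 4.29% had an SD of at least 1 in some library. These entries were not matched for level, since 41.7% of them were at 0 in all 3 libraries, against 6.64% of the members. At a mean of 10 to under 30, 36 of 108 members had an SD of at least 1 in P_Bb or P_BB. Among all 1860 entries with such a mean, 207 did. Among the stronger receptors, which have more reads to divide, 103, 113 and 110 entries (39.3% to 43.1%) had such an SD. Among entries with a count above 0, the SD exceeded the square root of the count, a yardstick for counting error, in 9 of 182, 13 of 185 and 9 of 178 members and in 7, 9 and 11 of the 262 stronger receptors. At the other end, 80 members (37.9%) and 45 stronger receptors (17.2%) had an SD of 0 in every library. The 80 members had a median length of 973.5 bases, and 55.0% of them were shorter than 1000 bases. The 41 members with an SD of at least 1 in every library had a median length of 1182 bases, and 12.2% of them were shorter than 1000 bases.

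**Figure D3:**
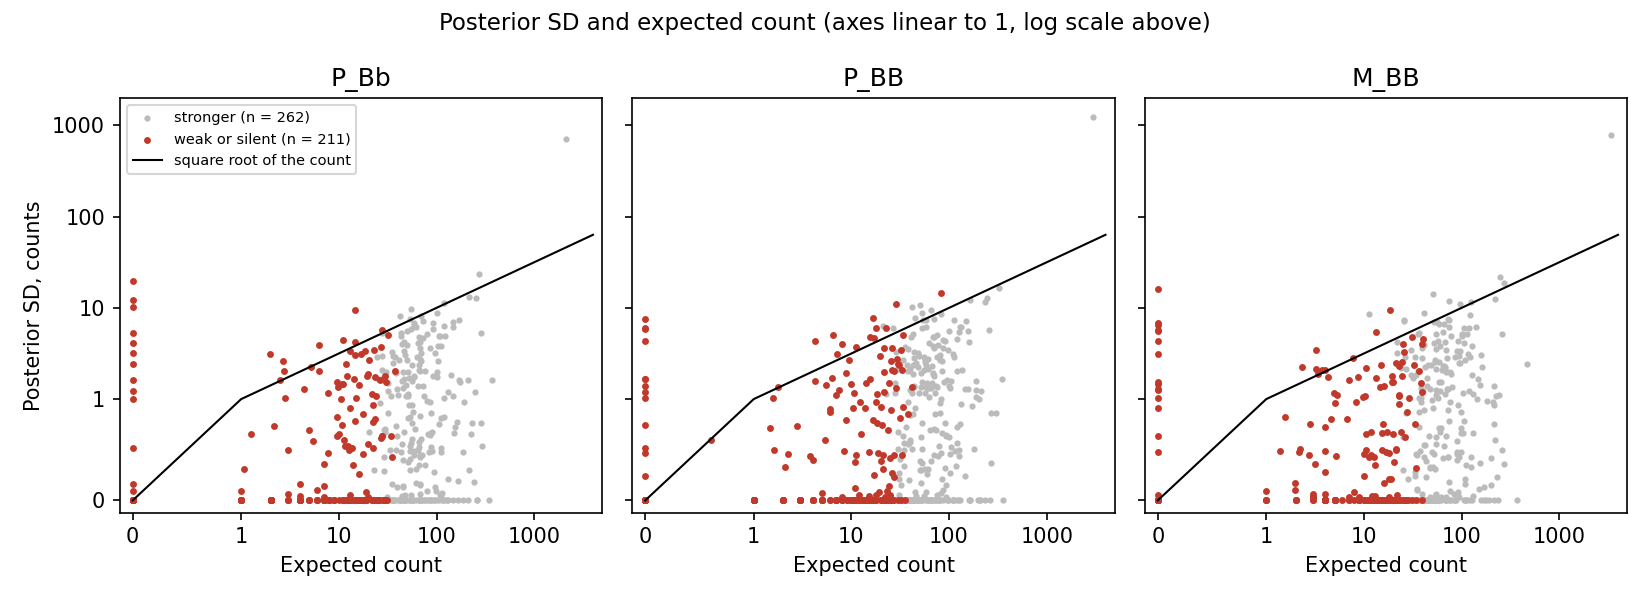
Posterior SD (vertical axis, counts) against expected count (horizontal axis) for 211 weak or silent and 262 stronger receptor entries in each library, with both axes linear up to 1 and logarithmic above and a line at the square root of the count. The column of points at a count of 0, which lie above the line at any SD above 0, reaches an SD of 19.6 in P_Bb.

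The members with the highest posterior SD, averaged over libraries, were SiOR280 (16.8 counts), SiOR420 (9.98), SiOR84 (8.41), SiOR56 (7.67) and SiOR154 (5.78). SiOR420 had 14.6, 28.8 and 18.3 expected counts with SDs of 9.52, 11.03 and 9.39. The gap between P_Bb and P_BB was smaller than the sum of their SDs. SiOR154 had 0, 16.6 and 0 counts, but posterior means of 3.33, 15.7 and 8.35 with SDs of 3.24, 7.65 and 6.45. SiOR173 had the highest ratio of SD to mean among members with a mean of at least 3, with 0, 6.54 and 3.22 counts and SDs of 2.42, 5.09 and 3.46. For SiOR156, the mean SD was 0.51 times the mean count of its 3 libraries. The 5 members with the highest SD had lengths of 1155 to 1221 bases.

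For some members the entry on the other side of the shared reads could be found. If a read can belong to either of 2 entries and to no other, whatever 1 entry gains the other loses, so both have the same SD and their summed count is whole. A search for entries with the same SD within 0.01 in all 3 libraries and a summed count whole within 0.02 gave exactly 1 partner for 22 of the 76 members with an SD of at least 0.1 in every library (28.9%). Over all reference entries the same search gave a partner for 354 of 3011 (11.8%). The search was set up after the values had been seen, it used no sequence, and the partner is therefore a match by values. In 21 of the 22 pairs the partner was an entry of the official gene set (SINVm1_gene), and in 1 pair it was another receptor, SiOR465 with SiOR307. The sources used here do not say whether such a SINVm1_gene entry and its receptor entry are models of 1 locus or of 2 copies.

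A partner was found for 5 of the 14 entries at 0 in every library. These receptor entries were picked at 0, so that the partner held all the pair's counts follows from the selection. SINVm1_gene_13979, the partner of SiOR84, had 87, 91 and 79 counts. SINVm1_gene_13889, the partner of SiOR56, had 106, 119 and 151 counts. SINVm1_gene_15198, the partner of SiOR430, had 55, 36 and 41 counts. All 3 of these partners had a mean normalized count above 30, the limit for weak receptors. SINVm1_gene_04706, the partner of SiOR232, had 25, 10 and 28 counts, and SINVm1_gene_06498, the partner of SiOR357, had 5, 9 and 5. SiOR89 and SiOR33, whose zeros also carried a posterior SD, had no partner by this search. SiOR84 and SINVm1_gene_13979 differed in length by 9 bases (1164 and 1173), and SiOR56 and SINVm1_gene_13889 by 27 (1221 and 1248). SiOR85, the next number after SiOR84, was paired with SINVm1_gene_13978, the number before that of SiOR84's partner. It had 10.9, 22.7 and 13.4 counts, and its partner had 14.1, 14.3 and 7.57.

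The clearest exchange was between SiOR280 (1158 bases) and SINVm1_gene_14573 (1146 bases). SiOR280 had 0, 83 and 0 counts. SINVm1_gene_14573 had 67, 0 and 59 counts. Where either of these entries had counts, the other was at 0. Both entries had SDs of 19.6, 14.6 and 16.2 counts. Their sums were 67, 83 and 59 counts, or 71.5, 86.6 and 53.0 normalized counts, so that the pair was present in all 3 libraries. SiOR280 alone looked specific to P_BB, and the pair differed by 0.70 on the log2 scale between P_BB and M_BB and by 0.27 between P_BB and P_Bb. SiOR2 (1221 bases) and SINVm1_gene_10645 (1005 bases) exchanged counts in the same manner. SiOR2 had 0, 25.8 and 39 counts, and its partner had 22, 2.18 and 0. The sums were 22, 28 and 39 counts. The zero of SiOR2 in P_Bb thus stood beside a partner with all of the pair's reads.

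The remaining pairs divided their reads in several ways. SiOR90 had 1.97, 0 and 0 counts, and its partner SINVm1_gene_02172 had 10.03, 30 and 33. SiOR386 had 2.70, 4.24 and 0 counts, and SINVm1_gene_13080, 3 bases longer, had 40.3, 65.8 and 65.0. SiOR45 had 12.2, 8.72 and 14.8 counts beside 27.8, 35.3 and 37.2 in SINVm1_gene_01731. In SiOR71, SiOR82, SiOR151 and SiOR397 the receptor entry held most of the reads. SiOR397 had 15, 27 and 33 counts, with 0 in each library for its partner. Over the 22 pairs, the partner had the higher mean in 12, and the summed mean reached 30 in 10. With the pairs summed, 201 of the 211 entries stayed under 30, 174 were above 0 in all 3 libraries and 9 were at 0 in all 3. A sum gives the receptor every count of its partner, also counts that were not in doubt, so these shifts follow from the summing. SiOR430, with posterior means of 0.25 to 0.39 counts, was thereby given 55, 36 and 41 counts.

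**Figure D4:**
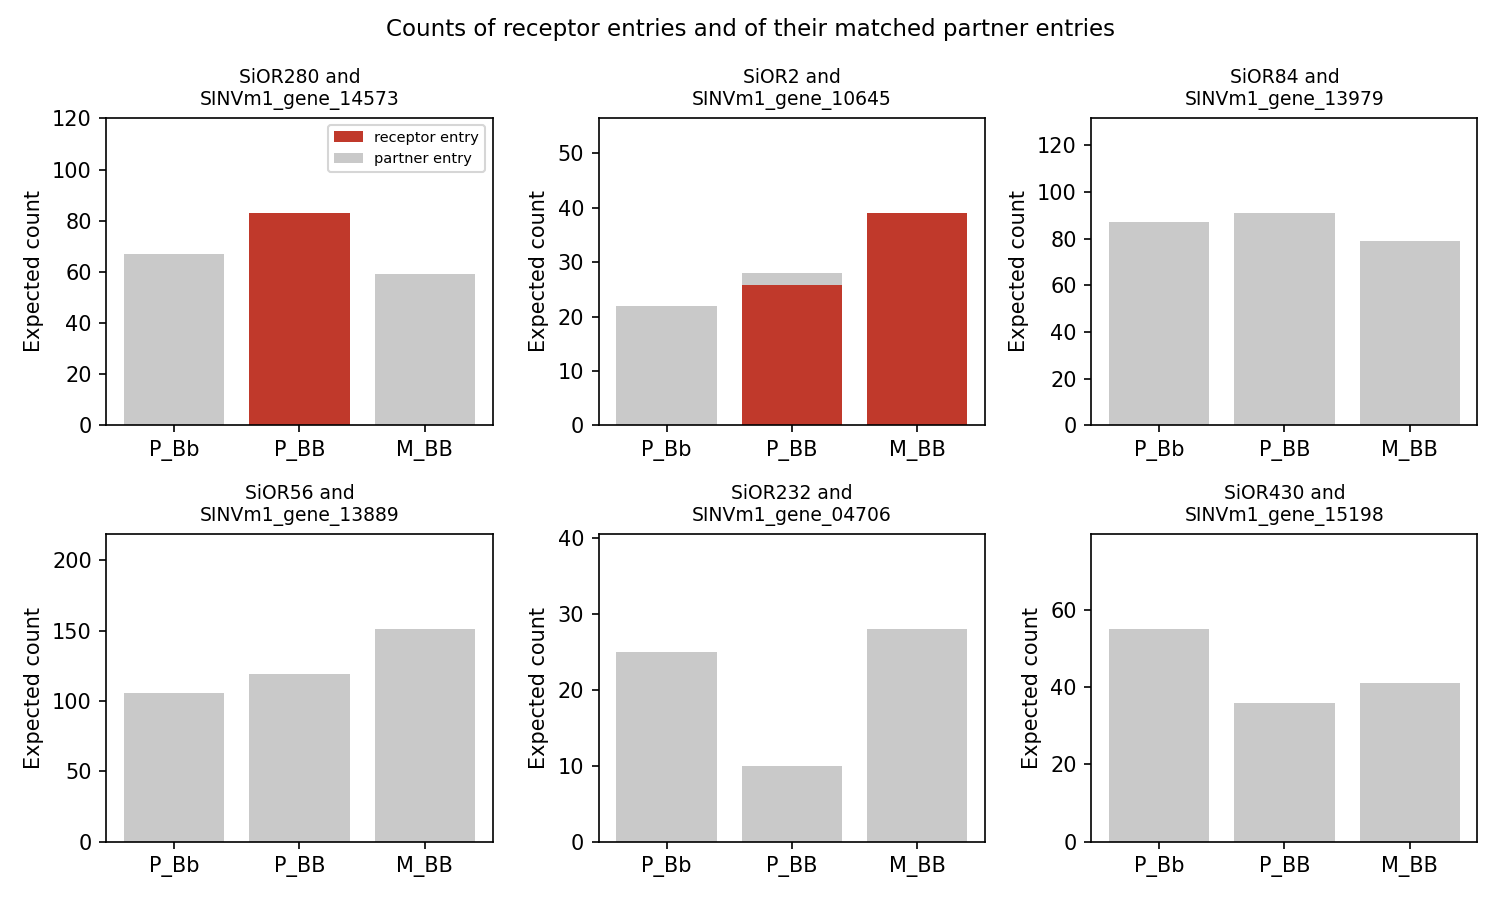
Expected counts (vertical axes) in each library of 6 receptor entries and of the entries matched to them by equal posterior SDs, stacked. The receptor entry holds all 83 counts in P_BB and none of 67 and 59 in P_Bb and M_BB for SiOR280, and SiOR84, SiOR56, SiOR232 and SiOR430 hold none of the pair's counts in any library.

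Detection in a single library rested on few reads or on shared ones. Above 0 in 1 library alone were 5, 6 and 2 members, by library. The highest count among them was 2.48, 83 and 2. Only SiOR280 and SiOR154 passed the floor of 3 counts, both in P_BB and both with SDs above 3 in every library. At 0 in 1 library alone were 7, 5 and 8 members. Counting the members that were at 0 in 1 library and above the floor in another gave 11 entries. Of these, 7 had an SD of at least 1 in every library, namely SiOR2, SiOR5, SiOR154, SiOR173, SiOR280, SiOR290 and SiOR386. An SD of 0 in every library was found for 2 of the 11, SiOR102 and SiOR308, named after their values were seen. SiOR308 (1080 bases) had 9, 8 and 0 counts, and SiOR102 (690 bases) had 4, 2 and 0. Both were at 0 in M_BB, where a count of 0 allows up to 3 counts. SiOR308 was thus the member with the largest count beside a 0 in which no read was shared.

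The ratios between libraries were compared for the 108 members with a mean of at least 10, since the 103 others had too few counts. A pseudocount of 1 was added before the log2 ratio was taken, which makes the ratios of low entries smaller. At least 2-fold apart between P_Bb and P_BB were 9 members (8.33%, 2 higher and 7 lower in P_Bb), where 12.4% of all 1860 entries with such a mean were. Between P_BB and M_BB there were 13 (12.0%, 12 higher and 1 lower in P_BB), against 13.8%. Between P_Bb and M_BB there were 18 (16.7%, 15 higher and 3 lower in P_Bb), against 15.3%. These shares, with both directions together, were near the background. No background share was taken for each direction alone. The median log2 ratio of the 108 members was -0.08, 0.42 and 0.19 in the 3 comparisons, in the order above. For all 1860 entries it was 0.03, 0.01 and 0.04. The 3 comparisons share libraries, so they do not support each other.

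The share of members 2-fold apart was larger at an SD of at least 1 count than under 1 in each comparison. Between P_Bb and P_BB, 5 of 36 members with an SD of at least 1 in either library were 2-fold apart (13.9%). With an SD under 1 in both libraries, 4 of 72 were (5.56%). Between P_BB and M_BB the numbers were 9 of 38 (23.7%) and 4 of 70 (5.71%). Between P_Bb and M_BB they were 9 of 36 (25%) and 9 of 72 (12.5%). Over all 1860 entries, the shares with an SD of at least 1 and under 1 were 19.3% and 11.6%, 20.6% and 12.9%, and 21.3% and 14.5% in the same comparisons. The difference by SD was not tested. The deposited TPM credibility intervals of the 2 libraries did not overlap for 2, 3 and 6 of the 108 members in the 3 comparisons, against 3.33%, 5% and 5.81% of the 1860 entries.

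The 95% Clopper-Pearson interval of the ratio, which covers counting error alone, excluded 1 for 10, 14 and 14 of the 108 members in the same comparisons, against 10.8%, 13.3% and 14.1% of the 1860 entries. The members that follow were named for having the largest ratios, so their intervals are a description. Among members with little doubt, SiOR49 had 29, 11 and 15 counts. P_Bb lay above both others, with a ratio to P_BB of 2.69 (1.31 to 5.98). SiOR401 had 11, 35 and 34 counts and was low in P_Bb, with a ratio of 0.321 to P_BB (0.147 to 0.647) and 0.384 to M_BB (0.176 to 0.776). SiOR400 had 17, 11 and 5 counts, a ratio of 4.03 of P_Bb to M_BB (1.43 to 14.0). Among members with an SD of at least 1, SiOR17 had 22.6, 31.95 and 3.70 counts with SDs of 3.41, 3.47 and 2.11. With counts rounded to whole numbers, its ratio of P_BB to M_BB was 9.29 (3.30 to 36.2). The gap in counts from M_BB to each other library was larger than the sum of the SDs. SiOR87 had 18.4, 11.2 and 3.95 counts with SDs of 3.38, 3.74 and 2.06. With the pseudocount, SiOR421 was the only 1 of the 108 members at least 2-fold lower in P_BB than in M_BB. It had 16.9, 9.47 and 24.9 counts. Without the pseudocount, SiOR44 was also at least 2-fold lower, with a ratio of P_BB to M_BB of 0.494 (0.262 to 0.8905). SiOR425 had 16.2, 6.31 and 7.01 counts. SiOR269 had 7.76, 15.5 and 21.3 counts, and with its partner SINVm1_gene_05704 the pair had 19, 25 and 35.

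Summed over the 211 members, the normalized counts were 2475, 2778 and 2173. The ratio of P_BB to M_BB was 1.28 (1.21 to 1.35), that of P_Bb to M_BB was 1.14 (1.08 to 1.21) and that of P_Bb to P_BB was 0.891 (0.843 to 0.942). For all other entries with a mean under 30, the ratios in the same order of comparisons were 0.978 (0.9655 to 0.9905), 1.01 (1.001 to 1.03) and 1.04 (1.02 to 1.05), so that intervals of counting error excluded 1 in this large sum as well. The stronger receptors had ratios of 1.135 (1.12 to 1.16), 1.10 (1.08 to 1.12) and 0.972 (0.955 to 0.990), so the lower sum in M_BB was not particular to the weak set. With the 146 members whose SD was under 1 in every library, the ratios were 1.22 (1.13 to 1.31), 1.14 (1.06 to 1.22) and 0.937 (0.872 to 1.01). With the 80 members whose SD was 0 in every library, they were 1.08 (0.973 to 1.19), 1.11 (1.004 to 1.23) and 1.03 (0.931 to 1.14). In these 80 members the interval of the ratio of P_BB to M_BB included 1, and it also included the 1.135 of the stronger receptors. Whether shared reads bear on the difference between these sets was not tested. The part of the pooling and of the separate amplifications in these ratios was not tested.

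**Figure D5:**
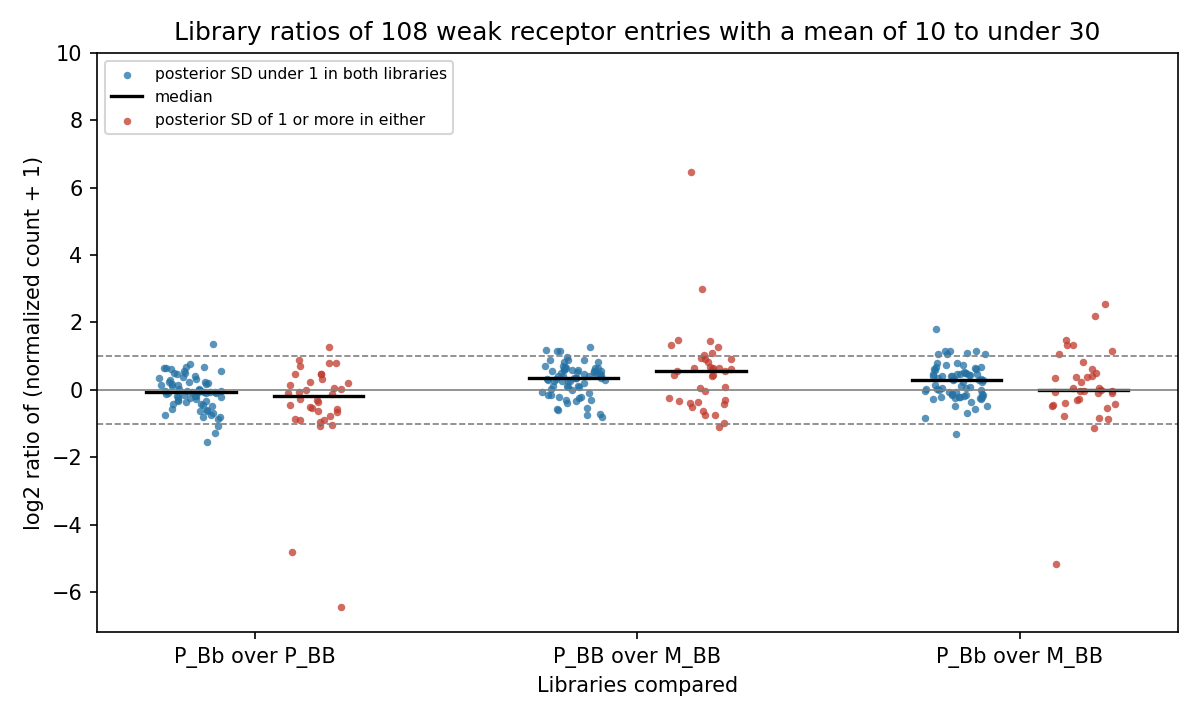
Log2 ratios of normalized count + 1 (vertical axis) between pairs of libraries (horizontal axis) for the 108 weak receptors with a mean of 10 to under 30, 1 point per entry, split by posterior SD, with a line at each median and dashed lines at 2-fold. At or beyond the dashed lines lie 9, 13 and 18 entries, and the points farthest out are SiOR280 and SiOR2.

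Weak receptors were not spread evenly over the receptor numbers. What the numbering follows is not given in the sources used here, so it is used only as an order of names. After a member, the next number was a member in 116 of 211 cases (55.0%), and after a stronger receptor in 95 of 261 cases (36.4%). Members made up 76.0% of the numbers 301 to 350 (38 of 50) and 62.0% of the numbers 101 to 150 (31 of 50), but 24.0% of the numbers 151 to 200 (12 of 50). The longest run was SiOR234 to SiOR243, with 10 members of 759 to 1071 bases and means of 0.60 to 19.3. SiOR127 to SiOR135 held 9 members with a median length of 1185 bases, and SiOR325 to SiOR333 held 9 with a median length of 936 bases. The run SiOR84 to SiOR90 held 7 members, of which SiOR84, SiOR88 and SiOR89 were at 0 in every library. In that run 5 members had a mean SD of at least 1, and SiOR88 (681 bases) and SiOR86 (825 bases), the 2 short ones, had an SD of 0.

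SiOR163 and SiOR462, which the study places beside SiOR463 in a receptor cluster of the supergene, were both members. SiOR163 (1071 bases) had 1.25, 0 and 6.69 counts with SDs of 0.66, 0.47 and 0.80. It passed the floor in M_BB only. SiOR462 (822 bases) had 0, 2 and 0 counts with an SD of 0 in each library, all at or under the floor. The study also gives the identifiers SINVm1_gene_13698 for SiOR462 and XLOC_016888 for SiOR463. SINVm1_gene_13698 (615 bases) had 1, 2 and 0 counts with an SD of 0, so no read of it or of SiOR462 was in doubt. SiOR463 (996 bases) was no member, with 39, 49.9 and 48 counts, a mean normalized count of 45.6 and SDs of at most 0.30. The study reports that SiOR463 is missing from the Sb genome and was lower in SB/Sb than in SB/SB workers. The counts given here are unscaled and of 1 library per class. M_BB had a larger size factor (1.11) than P_Bb (0.938) and P_BB (0.958), so scaling narrows the gap between P_Bb and M_BB. The order of the unscaled counts is therefore not to be read as that difference, which was not tested. An entry named XLOC_016888 had 4, 1 and 2 counts, but such numbers can differ between assemblies of transcripts, and whether it is the model the study refers to was not settled.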

How the data were processed

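Antennal RNA of workers was sequenced in 3 pooled libraries, 1 per class. As the file headers and names show, the authors aligned paired reads to transcript sequences by Bowtie and quantified them by RSEM, with no strand setting. The study's methods name program versions for the analysis of its separate samples, and versions for these pooled libraries are not given in the sources used here. The deposited expected counts can be fractional and carry no scaling by the authors. The deposited TPM, posterior means, posterior SDs and TPM credibility intervals came from the same RSEM runs. Here each library was scaled by the 75th percentile of its entries relative to the geometric mean of the 3 percentiles, with size factors of 0.938 (P_Bb), 0.958 (P_BB) and 1.11 (M_BB). Log2 ratios used a pseudocount of 1, a mean of at least 10 and a 2-fold limit. Ratios given with a 95% Clopper-Pearson interval, and the intervals, used counts rounded to whole numbers and no pseudocount. The members and the lists were chosen with earlier results of these data known.

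The genes named by rule were SiOR163, SiOR462, SiOR463 and the study's other identifiers for the last 2, the 5 members with the highest mean and the 3 receptors next above 30. To these came the 5 members with the highest posterior SD and the 5 with the highest ratio of SD to count at a mean of at least 3. The rule also took the 3 longest and 3 shortest entries at 0 in every library, up to 3 members per library seen there alone above 3 counts, up to 3 per comparison and direction with the largest ratio, and the member with the highest mean TPM. Further names were chosen after their values were seen. None of the receptor identifiers matched the RefSeq gene table used for names, and no sequence is shown. The analysis used Python 3.11.15, pandas 2.3.3, numpy 2.4.6 and scipy 1.17.1, with edgeR 4.0.16 and DESeq2 1.42.0 (R 4.3.3) for alternative scalings only. The scripts were tested on simulated data. A deposited file of transcript models and a file of expression patterns were not used.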

Additional observations from a re-analysis of the deposited data

How the results depend on the processing

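Of 123 alternative values, 89 stayed within the limits set for them and 34 moved. A change of direction was not scored. The number of members was 211 with TMM, median of ratios, library totals and posterior mean counts, 163 at a limit of 20 and 294 at a limit of 50. Members at 0 in every library numbered 40 where at most 3 counts were read as 0 and, with partners summed, an alternative chosen after the data were seen, 9. The share of the members was 0.0744%, 0.0850% and 0.0669% of TPM in P_Bb, P_BB and M_BB, 0.0358%, 0.0394% and 0.0317% of counts at a limit of 20 and 0.161%, 0.176% and 0.140% at a limit of 50. By effective length, the medians were 908.5 bases for weak members above 0 and 986.5 for stronger receptors. Members with an SD of at least 2 numbered 27, 29 and 27, those with an SD of at least 0.5 in P_Bb 78, and those with an SD of at least 20% of the count in P_Bb 32. For P_Bb over P_BB, P_BB over M_BB and P_Bb over M_BB, the members at the limit numbered 39, 46 and 51 without the filter, 3, 5 and 9 at a mean of at least 20, 35, 47 and 34 at 1.5-fold and 4, 6 and 8 with a pseudocount of 5. With an SD under 1 in every library, a choice made after the data were seen, they numbered 4, 4 and 9. The median log2 ratio of P_BB over M_BB was 0.42, and 0.19 without the filter. The cause of these moves was not tested, beyond the entries that each setting adds or removes. No paired analysis was possible because the worker classes are represented by a lone library apiece, which also means that none could be left out. Depth limits the lowest members: at a floor of 3 counts, absence and a low level cannot be told apart.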

Other observations

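Runs of members with successive numbers differed in how their counts fell over the libraries. SiOR325 to SiOR333 summed to 87.5, 117 and 95.1 normalized counts (P_Bb, P_BB, M_BB), SiOR127 to SiOR135 to 169, 163 and 127, and SiOR234 to SiOR243 to 81.1, 86.6 and 86.3. SiOR102 to SiOR107, a run of 6 short members with a median length of 726 bases, summed to 63.2, 41.6 and 32.4. These sums are of 1 library each and were not tested.

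SiOR1_co, a stronger receptor, had posterior SDs of 719, 1244 and 777 counts beside expected counts of 2108, 2958 and 3418, so that doubt over shared reads was not confined to weak entries. Without it, the summed stronger receptors had a ratio of P_BB to M_BB of 1.155 (1.13 to 1.18) and of P_Bb to M_BB of 1.16 (1.14 to 1.18).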
